A study of Mus musculus with 2 samples.

Results

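Chemokine receptors of macrophages were described as 9 genes, Ccrl2, Ccr1, Cmklr1, Cxcr4, Ackr3, Ccr7, Ccr3, Cx3cr1 and Ccr2, taken by symbol from the 34745 Ensembl genes of the deposited tables. Each symbol matched 1 Ensembl ID. The data were 2 RNA sequencing libraries of mouse peritoneal macrophages on the C57BL/6 background, 1 labelled Kdm2b-/- and 1 labelled wild type. The cells of both came from the peritoneal cavity 4 days after thioglycollate, a broth that draws macrophages there, and both were given 100 ng/ml of lipopolysaccharide (LPS), a bacterial cell wall product; its duration is 4 h in one label and 3 h in another. The sources used here do not give age, the number of animals behind a library or the kind of Kdm2b allele. No library without LPS was used, so every value is a level after LPS. With 1 library per group there is no replicate check and no test, and every statement is about these libraries.

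Chemokine receptors are membrane proteins with 7 helices that couple to inhibitory G proteins and steer leukocytes up a gradient of a secreted chemokine. Atypical members such as Ackr3 and Ccrl2 bind ligand without that coupling and instead clear it or hold it at the cell surface. On macrophages and their precursors these receptors are known for recruitment to inflamed tissue, and LPS is known to alter their expression.

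Of the 9 receptors, 4 averaged 1 FPKM or more over both libraries: Ccrl2, Ccr1, Cmklr1 and Cxcr4. FPKM is the number of fragments scaled to exon length and to the depth of the library. The other 5, among them Ccr2 and Cx3cr1, were under that floor in both libraries. Ccrl2 was by far the most abundant and carried 96.1% of the summed FPKM of the 9 genes in the library labelled Kdm2b-/- and 95.4% in the wild-type library. Cxcr4 was higher in the library labelled Kdm2b-/-, and Ccr1, Cmklr1 and Ccrl2 were lower there.

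The sequences before a transcription start of each of the 4 measured receptors are shown because these differ in how many CpG dinucleotides they hold. The protein missing by label, KDM2B, is known to bind unmethylated CpG through a zinc finger. Each is the 250 bases before a RefSeq transcription start (GRCm38.p6), 5′ to 3′ on the strand of the gene, with every CpG in capitals. The Cxcr4 window is chr1:128592300-128592549, that of Ccrl2 chr9:111057519-111057768, that of Cmklr1 chr5:113643604-113643853 and that of Ccr1 chr9:123968693-123968942, all on the minus strand.
Cxcr4: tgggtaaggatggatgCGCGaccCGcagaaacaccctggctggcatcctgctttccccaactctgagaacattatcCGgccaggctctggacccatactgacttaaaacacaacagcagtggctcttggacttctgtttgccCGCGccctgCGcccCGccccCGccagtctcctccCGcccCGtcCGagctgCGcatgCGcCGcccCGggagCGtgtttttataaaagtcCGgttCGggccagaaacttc
Ccrl2: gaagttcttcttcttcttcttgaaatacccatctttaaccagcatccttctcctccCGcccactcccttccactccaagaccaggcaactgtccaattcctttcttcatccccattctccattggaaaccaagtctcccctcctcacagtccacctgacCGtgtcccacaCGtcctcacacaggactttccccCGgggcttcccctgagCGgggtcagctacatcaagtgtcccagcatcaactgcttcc
Cmklr1: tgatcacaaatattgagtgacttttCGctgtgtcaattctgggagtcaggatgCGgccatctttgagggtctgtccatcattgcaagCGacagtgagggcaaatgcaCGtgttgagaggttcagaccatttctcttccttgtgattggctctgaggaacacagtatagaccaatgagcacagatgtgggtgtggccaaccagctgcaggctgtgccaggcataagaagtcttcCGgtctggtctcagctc
Ccr1: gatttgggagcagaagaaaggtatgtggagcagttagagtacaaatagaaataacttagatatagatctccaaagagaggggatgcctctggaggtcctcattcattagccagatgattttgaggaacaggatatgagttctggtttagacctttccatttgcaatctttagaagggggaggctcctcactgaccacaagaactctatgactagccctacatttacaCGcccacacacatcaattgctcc
The search was for CG, which reads the same on both strands. Cxcr4 held 19 CpG in this window, and 19.7% of the 32851 RefSeq windows of the same length held as many or more. Ccrl2 and Cmklr1 held 5 each, a number reached by 55.6% of windows, and Ccr1 held 1, reached by 92.1%. The median window held 6. Of the receptors under the floor, Ackr3 held 7, Cx3cr1 4, Ccr2 1 and Ccr3 0, and Ccr7 had no entry. The windows of Cmklr1 and Cx3cr1 lie inside the annotated spans of their genes, as does most of that of Ccr2. For these genes the count describes the bases before an internal start, not those before the annotated gene. No binding or methylation data were used, so these counts describe the sequence only.

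The libraries held about 26810000 and 27270000 fragments (library labelled Kdm2b-/- first, here and below). These depths were implied by the step on which FPKM times a gene's summed exon length fell on whole multiples. Kdm2b itself stood at 0.326 and 0.205 FPKM, from 164 and 105 counted fragments, and so was not lower in the library labelled Kdm2b-/-; reads of the genes it overlaps on the opposite strand cannot be told apart from its own. Each direction below is therefore one between labels. All 8 macrophage markers passed 1 FPKM, with Lyz2 at 11409 and 8945 FPKM and Cd68 at 1753 and 1722 FPKM. Cd3e, Cd3d, Cd3g, Ncr1 and Nkg7 of the T and NK cell list and Ly6g, Mpo and Retnlg of the neutrophil list were listed at 0 in both. Markers of mast cells and basophils summed to 0.389 and 0.665 FPKM, of neutrophils to 21.6 and 20.3 FPKM (mostly S100a8, 14.6 and 13.8 FPKM), of mesothelium to 85.2 and 79.6 FPKM, of endothelium to 1.93 and 1.85 FPKM and of resident large peritoneal macrophages to 11.9 and 9.54 FPKM. Within the resident list Gata6 (7.85 and 4.48 FPKM) and Timd4 (1.22 and 2.40 FPKM) lay on opposite sides. In bulk RNA, fewer cells of a type and less RNA per cell cannot be told apart.

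**Figure D1:**
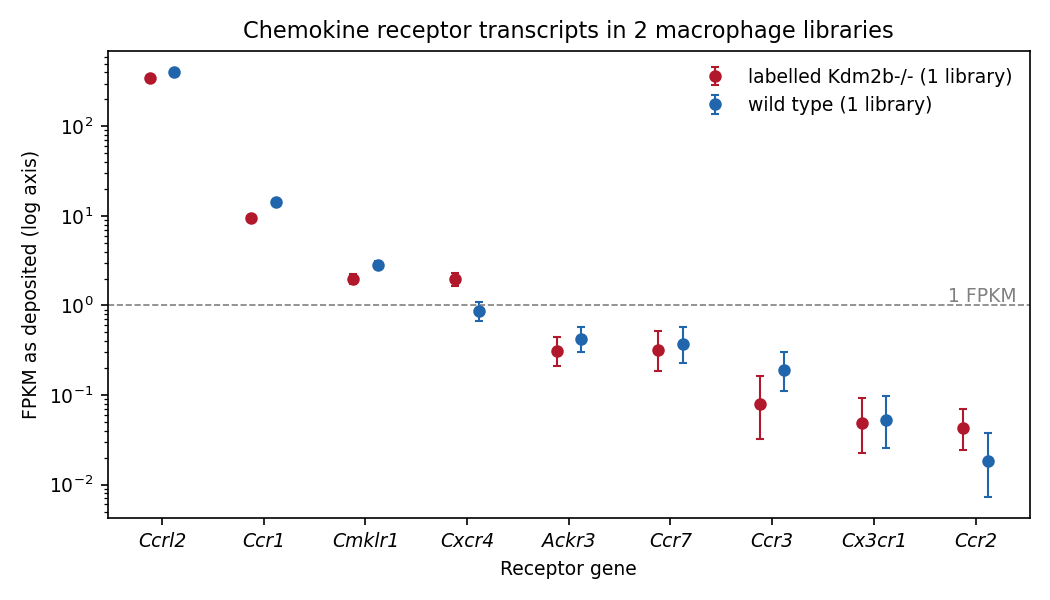
FPKM of the 9 receptor genes (log axis) in the library labelled Kdm2b-/- (red) and the wild-type library (blue), 1 library each; bars are 95% counting intervals. Ccrl2, Ccr1 and Cmklr1 lie above the dashed line at 1 FPKM in both libraries, Cxcr4 in the library labelled Kdm2b-/- only (1.97 and 0.867 FPKM), and the other 5 lie below it.

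Ccrl2 (ENSMUSG00000043953, chromosome 9, 111054486 to 111057519, GRCm38) encodes an atypical receptor that binds chemerin and presents it to cells carrying Cmklr1. It stood at 350.6 FPKM in the library labelled Kdm2b-/- and 401 FPKM in the wild-type library, from 44875 and 52240 counted fragments. It ranked above 99.6% of all listed genes in the first library and 99.5% in the second. The wild-type value was 1.14-fold that of the other library, and the log2 ratio of FPKM was -0.19 with a 95% counting interval of -0.21 to -0.18. The interval is narrow because the gene is deeply covered; it covers counting error only.

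Cmklr1 (ENSMUSG00000042190, chromosome 5, 113612354 to 113650426), the signalling receptor for chemerin on macrophages, stood at 1.98 and 2.86 FPKM, from 239 and 351 counted fragments. Its log2 ratio of FPKM was -0.53 (95% counting interval -0.77 to -0.29), which is 1.44-fold lower in the library labelled Kdm2b-/-; on the scale of log2(FPKM + 1) it was -0.37. Rarres2, which encodes chemerin, was lower there as well, at 0.631 and 1.47 FPKM (61 and 145 fragments; counting interval of the log2 ratio of FPKM -1.68 to -0.78). Ccrl2, Cmklr1 and Rarres2 thus lay on the same side of 0, while Gpr1, a further chemerin receptor outside the 9 genes, was listed at 0 in both libraries. Rarres2 passed the floor through the wild-type library alone. Cmklr1 overlaps the annotated gene Gm15736 on the opposite strand, and no strand marking is described for these libraries.

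Ccr1 (ENSMUSG00000025804, chromosome 9, 123962124 to 123968692) encodes a receptor for inflammatory chemokines such as Ccl3, Ccl5 and Ccl9 and was the second most abundant member. It stood at 9.49 and 14.4 FPKM, from 720 and 1115 fragments. The wild-type value was 1.52-fold that of the library labelled Kdm2b-/-, a log2 ratio of FPKM of -0.61 with a counting interval of -0.74 to -0.47. On the FPKM + 1 scale, which damps low genes, the log2 ratio was -0.56, and 3.09% of the 9022 genes past the floor had a lower one. Of the 3 members past the floor with a ratio below 0, Ccr1 had the lowest on both scales.

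Cxcr4 (ENSMUSG00000045382, chromosome 1, 128588199 to 128592293) encodes the receptor for Cxcl12, known for holding leukocytes in bone marrow and tissue. It stood at 1.97 FPKM in the library labelled Kdm2b-/- and 0.867 FPKM in the wild-type library, from 143 and 64 counted fragments. The first value was 2.27-fold the second, a log2 ratio of FPKM of 1.18 with a counting interval of 0.75 to 1.63. On the FPKM + 1 scale the ratio was 1.59-fold (log2 0.67), and 97.2% of genes past the floor had a lower one. Of the 4 members past the floor Cxcr4 alone lay above 0. It reached the floor only through the library in which it was higher, and with the wild-type value in both it would not have passed. Its rank and calls are given as a description and support nothing. B cells also carry Cxcr4, and their 6 markers lay on the other side, with sums of 2.86 and 27.3 FPKM. The 2 past the floor, Ighm (0.992 and 6.92 FPKM) and Igkc (1.47 and 18.9 FPKM), were lower by 2-fold or more, beside 1.02% of all genes. Ighm passed the floor through the wild-type library alone. Of the 7 stromal markers 6 lay above 0, the side of Cxcr4, beside 5705 of the 9022 genes past the floor. Of these 6 markers 3 were at least 2-fold higher, beside 0.865% of all genes past the floor. Lum lay below 0 (9.46 and 12.4 FPKM). The 7 summed to 337 and 292 FPKM, mostly from Dcn, which was close (251 and 248 FPKM). The part of these cells in the Cxcr4 value was not tested.

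**Figure D2:**
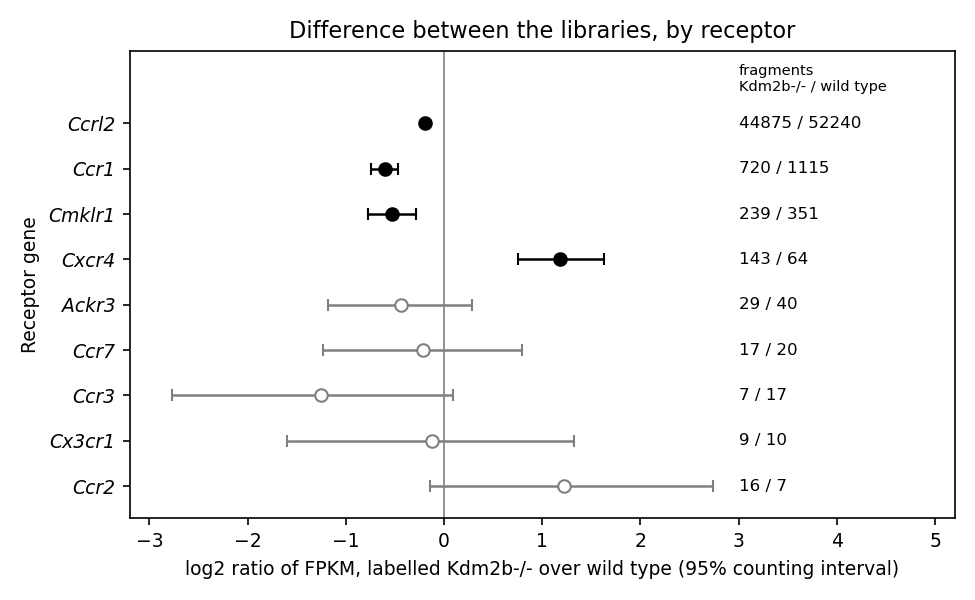
Log2 ratio of FPKM, library labelled Kdm2b-/- over wild type, for each receptor with its 95% counting interval; filled points passed a mean of 1 FPKM and the counted fragments of both libraries stand at the right. Cxcr4 lies to the right of 0, Ccrl2, Ccr1 and Cmklr1 to the left, and the intervals of the 5 open points cross 0.

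Against all genes the differences of the 4 measured receptors were moderate. By a fixed rule of at least 2-fold on the FPKM + 1 scale, 0 of the 4 were higher, beside 0.865% of the 9022 genes past the floor, and 0 were lower, beside 1.02%. In numbers these were 78 genes higher and 92 lower, or 44 and 113 with the libraries scaled to a median log2 ratio of 0 and 95 and 76 with equal FPKM totals. At 1.5-fold, Cxcr4, admitted by the library in which it was higher, was higher (4.69% of all genes) and 0 of the 4 were lower (2.79%). The counting interval lay above 0 for Cxcr4 and for 48.5% of all genes, and below 0 for Ccrl2, Ccr1 and Cmklr1 and for 24.1% of all genes, so at this depth an interval that leaves out 0 is common and sets no member apart. The 4 had a median log2 ratio on the FPKM + 1 scale of -0.28, beside 0.10 over all genes. Of the 4, 3 were below 0 and 1 above, beside 3317 below and 5705 above of the 9022 genes past the floor. Relative to that median of all genes, with the libraries scaled to bring it to 0, Ccr1 was at -0.67, Cmklr1 at -0.46, Ccrl2 at -0.32 and Cxcr4 at 0.59 on the FPKM + 1 scale.

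**Figure D3:**
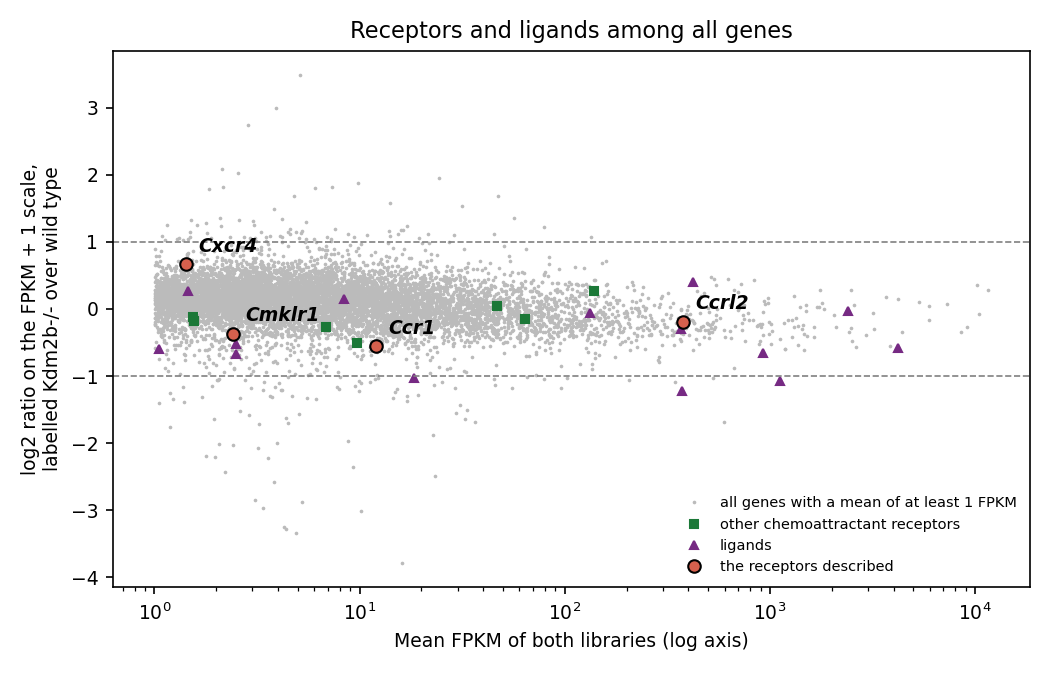
Mean FPKM of both libraries (log axis) against the log2 ratio on the FPKM + 1 scale for the 9022 genes past the floor (grey), the 4 measured receptors (labelled), the other chemoattractant receptors (green squares) and the ligands (purple triangles); dashed lines mark 2-fold. The 4 receptors lie inside the dashed lines, between -0.56 and 0.67.

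The 5 receptors under the floor were each counted in 7 to 40 fragments per library. Ackr3 (ENSMUSG00000044337), a scavenger of Cxcl12 and Cxcl11, stood at 0.312 and 0.423 FPKM, from 29 and 40 fragments (log2 ratio of FPKM -0.44, counting interval -1.18 to 0.29). Ccr7 (ENSMUSG00000037944), which guides mature dendritic cells and lymphocytes to lymph nodes, stood at 0.321 and 0.371 FPKM, from 17 and 20 fragments (interval of the log2 ratio of FPKM -1.23 to 0.80). For neither could a difference be detected at this depth. The 8 dendritic cell markers, Ccr7 among them, summed to 16.1 and 31.3 FPKM; Xcr1 and Clec9a were listed at 0 in both libraries, Flt3 was counted in 1 and 0 fragments, and Ccl22 alone passed the floor, at 14.6 and 29.2 FPKM.

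Ccr3 (ENSMUSG00000035448), the receptor by which eosinophils follow eotaxins, stood at 0.0798 and 0.190 FPKM, from 7 and 17 fragments. The log2 ratio of FPKM was -1.26 with an interval of -2.77 to 0.09, and -0.14 on the FPKM + 1 scale, so a difference was not detectable at this depth. The 6 eosinophil markers, Ccr3 among them, summed to 0.702 and 1.77 FPKM. Siglecf stood at 0.533 and 1.58 FPKM, on the same side, while the granule protein genes Epx and Ear6 were listed at 0 in both libraries and Prg2 was counted in 2 and 0 fragments. The part of eosinophils in the Ccr3 value was not tested.

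Cx3cr1 (ENSMUSG00000052336), the fractalkine receptor of patrolling monocytes and many resident macrophages, stood at 0.0488 and 0.0533 FPKM, from 9 and 10 fragments (interval of the log2 ratio of FPKM -1.60 to 1.33). Its annotated span runs across Csrnp1, Gorasp1 and Xirp1 on the same strand, so even these few fragments are uncertain. Ccr2 (ENSMUSG00000049103), the receptor for Ccl2 that brings monocytes out of the bone marrow, had the lowest deposited values, at 0.0425 and 0.0183 FPKM. It was counted in 16 and 7 fragments (log2 ratio of FPKM 1.22, interval -0.14 to 2.74, and 0.034 on the FPKM + 1 scale), and no difference was detectable. The 5 monocyte-derived markers, Ccr2 among them, summed to 22.7 and 27.2 FPKM. Chil3 stood at 14.2 and 13.2 FPKM and Plac8 at 7.74 and 13.1 FPKM, whereas Ly6c2 was at 0.684 and 0.706 FPKM.

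In order of FPKM the wild-type library ran Ccrl2, Ccr1, Cmklr1, Cxcr4, Ackr3, Ccr7, Ccr3, Cx3cr1 and Ccr2. In that library the counting intervals of Ackr3, Ccr7 and Ccr3 overlapped among themselves, as did those of Cx3cr1 and Ccr2. The first 4 genes were apart from each other. In the library labelled Kdm2b-/-, Cmklr1 (1.98 FPKM) and Cxcr4 (1.97 FPKM) overlapped, where the wild-type library had 2.86 and 0.867 FPKM, and so did Ccr7 with Ackr3 and, among themselves, Ccr3, Cx3cr1 and Ccr2. Levels between genes carry a further limit: the deposited values divide by a length in which overlapping exons of a gene count more than once, 1.84 times the non-redundant length for Ccrl2, 1.497 for Cxcr4 and 1.32 for Cmklr1. With the non-redundant length in its place and the fragment counts kept, Ccrl2 would stand at 644 and 737 FPKM. Cxcr4 (2.95 FPKM) would then come before Cmklr1 (2.62 FPKM) in the library labelled Kdm2b-/-. The 4 genes past the floor would stay the first 4. If fragments in overlapping exons were counted repeatedly, the counts are too high as well, and these rescaled levels are overstated. Which scale is nearer the true levels was not tested. The lengths behind Ccr2 and Cx3cr1 were inferred, and in the library labelled Kdm2b-/- the order of Ccr3, Cx3cr1 and Ccr2 depends on the length used: with the annotated exons Ccr2 would come before the other two.

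Of the 9 genes, 5 lie on chromosome 9. Ccr1, Ccr3 and Ccr2 lie in a run of receptor genes that holds, in order, Ccr9, Cxcr6, Xcr1, Ccr1, Ccr1l1, Ccr3 and Ccr2, with 53.3 kb between Ccr1 and Ccr3 and 70.3 kb between Ccr3 and Ccr2. Of these genes Ccr1 passed the floor. Ccr1l1 stood at 0.0767 and 0.0502 FPKM, Cxcr6 at 0.138 and 0.0969 FPKM and Ccr9 at 0.0563 and 0.0746 FPKM, and Xcr1 was listed at 0 in both libraries. Expression within the run was therefore uneven in both libraries, with Ccr1 more than 9 FPKM and its neighbours Ccr1l1 and Ccr3 under 1 FPKM. Receptor genes of this family share sequence, Ccr1 and Ccr1l1 among them, and the sources used here do not say how reads matching several genes were counted, so the values of Ccr1, Ccr2 and Ccr3 are uncertain to that extent.

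The other receptors give the setting. Of 25 further chemokine and chemoattractant receptors 7 passed the floor. At 2-fold 0 of them were higher, beside 0.865% of all genes past the floor, and 0 lower, beside 1.02%. Their median log2 ratio on the FPKM + 1 scale was -0.16, beside 0.10 over all genes. By sign 2 lay above 0 and 5 below, beside 5705 above and 3317 below of all genes past the floor. Among the 7, receptors for lipid and complement attractants were the most abundant. These were Ptafr for platelet-activating factor (151 and 126 FPKM), C3ar1 (60.3 and 67.3 FPKM) and C5ar1 (47.6 and 46.1 FPKM). The formyl peptide receptors Fpr2 (7.81 and 11.5 FPKM) and Fpr1 (6.11 and 7.53 FPKM) lay below 0 beside Ccr1, and Cxcr1 (1.43 and 1.64 FPKM) was near the floor. Fpr2 shares its span with Fpr3 on the same strand and is uncertain. Ccr4, Ccr8, Xcr1, Ackr2, Gpr1 and Fpr3 were listed at 0 in both libraries, where 3 fragments would give 0.0175 to 0.0952 FPKM. Cxcr5, a receptor of B cells named here after its values were seen, was counted in 4 and 50 fragments (0.0255 and 0.313 FPKM), in the direction of the B cell markers; their part in it was not tested.

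Among the ligands of these receptors, secreted chemokines and chemerin, most lay below 0. Of 19 listed 14 passed the floor, 11 of them below 0 and 3 above. Of the 9022 genes past the floor 3317 lay below 0 and 5705 above. Ccl2, Ccl6 and Ccl12 were lower by at least 2-fold (3 of 14, beside 1.02% of all genes) and 0 were higher by as much. At 1.5-fold 7 were lower (beside 2.79%), among them Rarres2, which passed the floor through the wild-type library alone. Their median log2 ratio on the FPKM + 1 scale was -0.55, beside -0.28 for the 4 measured receptors and 0.10 for all genes; the difference between these lists was not tested. The ligands of Ccr2 included 2 of the 3: Ccl2 (719 and 1510 FPKM) and Ccl12 (11.7 and 25.1 FPKM), and Ccl7 stood at 717 and 1130 FPKM. Ligand transcripts for Ccr2 were thus abundant in libraries where Ccr2 itself was counted in at most 16 fragments.

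For Ccr1, the ligands did not all lie on one side. Ccl6 was lower (223 and 525 FPKM) and Ccl9 lower by less (330.2 and 406 FPKM), Ccl3 was close (2368 and 2418 FPKM), and Ccl5 was higher (482 and 363 FPKM). Ccl4 stood at 3364 and 5057 FPKM and Ccl8 at 8.91 and 7.89 FPKM. Of the eotaxins for Ccr3, Ccl24 stood at 1.71 and 3.30 FPKM and Ccl11 at 0.483 and 0.407 FPKM, and Ccl26 was listed at 0. The Ccr7 ligands Ccl19 and Ccl21a were listed at 0 in both libraries.

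Cxcl12, shared by Cxcr4 and Ackr3, stood at 1.69 and 1.23 FPKM, from 587 and 435 fragments (counting interval of the log2 ratio of FPKM 0.28 to 0.64), on the side of Cxcr4 and not of Ackr3. Stromal cells are a known source of Cxcl12, and Cxcl12 itself stood in the stromal list. Of that list Col1a2 (24.2 and 9.67 FPKM) lay on that side too, while Dcn (251 and 248 FPKM) was close. Lum (9.46 and 12.4 FPKM) lay on the other side. The part of stromal cells in the Cxcl12 value was not tested. Cxcl11, the other Ackr3 ligand, stood at 1.87 and 3.12 FPKM. Mif, which also binds Cxcr4, stood at 129.6 and 135 FPKM, and Cx3cl1, the ligand of Cx3cr1, at 0.665 and 0.425 FPKM.

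**Figure D4:**
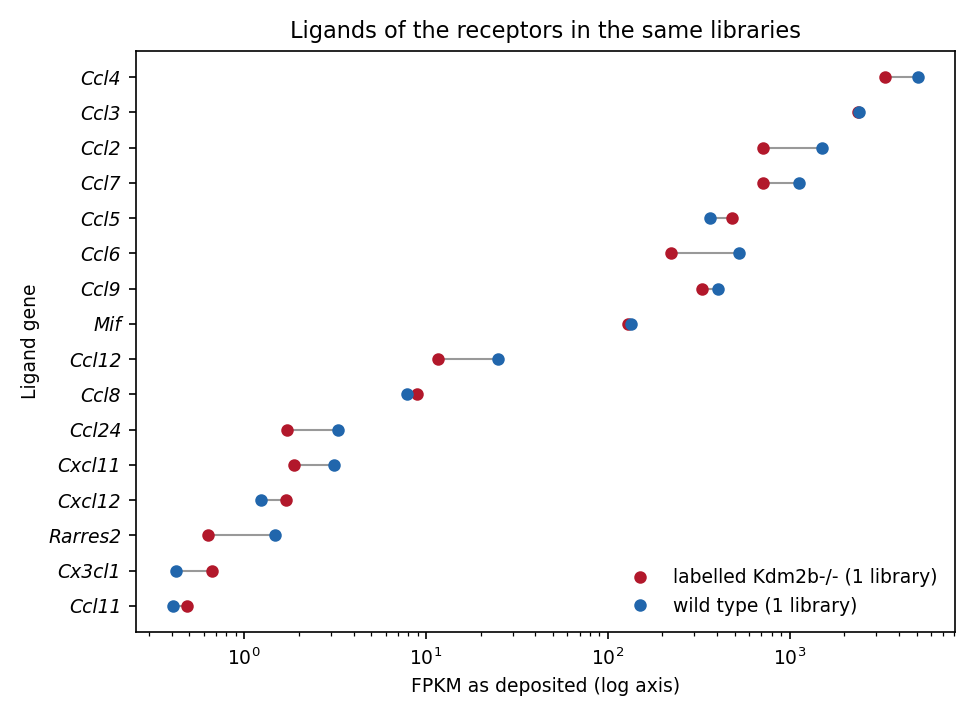
FPKM (log axis) of the 16 ligand genes above 0, in the library labelled Kdm2b-/- (red) and the wild-type library (blue), 1 library each, joined by a line. Ccl2, Ccl6, Ccl12 and Rarres2 show the widest gaps, with the wild-type value higher, and Ccl5, Ccl8, Cxcl12, Cx3cl1 and Ccl11 have the red point higher.

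Of 45 genes for G protein subunits, receptor kinases, arrestins, RGS proteins and migration, 42 passed the floor. At 2-fold 0 were higher, beside 0.865% of all genes past the floor, and 0 lower, beside 1.02%. At 1.5-fold 0 were lower, beside 2.79%, and 1 was higher, beside 4.69%. That gene was Pik3cg, the catalytic subunit of the phosphoinositide kinase that G protein beta-gamma subunits activate (2.42 and 1.23 FPKM). Tln1, the integrin activator talin (33.4 and 22.0 FPKM), Plcb3, a phospholipase under G protein control (9.81 and 6.23 FPKM), and Prex1, an activator of Rac (3.84 and 2.51 FPKM), followed. On the low side were the G protein subunits Gng5 (31.2 and 42.0 FPKM), Gnb4 (1.26 and 1.83 FPKM) and Gng2 (11.7 and 14.6 FPKM) and Rgs18, which speeds the shut-off of G proteins (1.05 and 1.35 FPKM). The list had 27 genes above 0 and 15 below, beside 5705 above and 3317 below of all genes past the floor. Its median was 0.14 beside the 0.10 of all genes. With equal upper quartiles the list's median was -0.0024 beside -0.013 for all genes, and with the trend in transcript length and GC content removed it was -0.04 beside 0.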

How the data were processed

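Messenger RNA of 2 libraries was compared, 1 per genotype label. The authors deposited 1 FPKM value per Ensembl gene and library, per the file headers. HISAT2 2.0.4, StringTie 1.3.0, edgeR and the builds GRCm38.p4 and mm10 are named in the submitters' processing notes; their roles, the annotation release and the counting are not stated there. Libraries were paired-end and made from polyadenylated RNA, per the labels' protocols, which describe no strand marking.

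Symbols, positions and exons came from GENCODE M21 (GRCm38), which held 34344 of the IDs and lacked 401. FPKM times the summed length of a gene's distinct exons fell on whole multiples of 1 step within 0.05 for 76.9% of genes under 1000 fragments in each library, and for genes with several transcripts in 74.0% and 74.3%, against 11.9% and 12.4% with the longest transcript. Fragments were recovered with these steps; for Ccr1, Ccr2 and Cx3cr1 the nearest length giving whole numbers in both libraries was used. The fragments summed to about 36700000 and 37400000, above the implied depths of 26810000 and 27270000, and to about 26100000 and 26600000 when divided by each gene's exon redundancy, so a fragment may count more than once. Exact Clopper-Pearson 95% intervals cover counting error only.

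Fold thresholds, ranks and list medians used log2(FPKM + 1); ratios of single genes with a counting interval used FPKM. The floor was a mean of 1 FPKM and the fold threshold 2, with no test. Named genes were all members, listed receptors and ligands past the floor, the signalling genes with the widest ratios and up to 2 abundant markers per list; other listed genes were named after their values were seen. Some listed genes are counted in the lists but not reported here by name. The members and lists were chosen with earlier results of these data known. Calculations were tested on simulated data. Python 3.11.15, NumPy 2.4.6, pandas 2.3.3 and SciPy 1.17.1 were used. The alternatives were other pseudocounts, scalings, floors, fold thresholds, protein-coding genes alone, removal of the length and GC trend (20 bins each) and, added after the data were seen, no pseudocount and the non-redundant exon length.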

Additional observations from a re-analysis of the deposited data

How the results depend on the processing

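No paired analysis was possible because each group held 1 library, and for the same reason no library could be left out. Ccrl2, Ccr1, Cmklr1 and Cxcr4 kept their direction in all 8 alternatives for the log2 ratio, and the medians of the 4 gene lists moved by less than the SD among their genes in all 10. Of the 9 receptors, Ccr2 took the other sign in 1 alternative, at -0.12 once the trend in length and GC content was taken out; the cause was not tested. That setting also gave -0.25 for Ccrl2 and -0.21 for Cx3cr1. With a pseudocount of 0.1 the log2 ratios were 1.099 for Cxcr4, 0.27 for Ccr2, -0.69 for Ccr3 and -0.34 for Ackr3, and 1 receptor, Cxcr4, was at least 2-fold higher. Without a pseudocount they were 1.18, 1.22, -1.26 and -0.44, with -0.13 for Cx3cr1. With a pseudocount of 5 they were 0.25 for Cxcr4, -0.42 for Ccr1 and -0.17 for Cmklr1. Scaling to a median of 0 gave -0.32 for Ccrl2, equal upper quartiles -0.34 for Ccrl2 and -0.69 for Ccr1, and equal totals -0.10 for Ccrl2. With the non-redundant length, by the annotated exons, Ccr2 was at 0.070. At 1.5-fold 1 receptor was higher.

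Over all genes, 78 were at least 2-fold higher. There were 173 with a pseudocount of 0.1, 14 with 5, 44 with scaling to a median of 0, 43 with equal upper quartiles, 43 with the length and GC trend removed, 35 at a floor of 5 FPKM, 423 at 1.5-fold and 5 at 4-fold. The 92 lower genes became 33 with a pseudocount of 5, 48 at a floor of 5 FPKM, 252 at 1.5-fold and 18 at 4-fold. Depth limits the 5 receptors under the floor, which rest on at most 40 fragments. If fragments in overlapping exons were counted repeatedly, the intervals are too narrow: with counts reduced to the non-redundant length, that of Cxcr4 (96 and 43 fragments) ran from 0.65 to 1.74 and that of Cmklr1 from -0.81 to -0.25.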
